A study of Mus musculus with 16 samples.

Results

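The genes of oxidative phosphorylation were described across 4 groups of mouse colon. They were taken as every gene whose symbol names a subunit family of 1 of the 5 respiratory complexes (Nduf, Sdh, Uqcr, Cox4 to Cox8 and Atp5) or a protein-coding gene of mitochondrial DNA. Of 116 matching genes, 8 with pseudogene symbols (-ps) were left out, while pseudogenes under other symbols stayed in. This gave 108 of the 39328 genes in the deposited table, 95 in the nucleus and 13 on mitochondrial DNA. By symbol, 49 nuclear genes belonged to complex I, 4 to complex II, 8 to complex III, 17 to complex IV and 17 to complex V. The complex I names include 8 Ndufaf assembly factors, which are not subunits of the finished enzyme, and Ndufa4, whose protein is now placed in complex IV.

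RNA came from the colon of adult wild-type mice of the outbred ICR stock, sequenced as bulk tissue. CON_VD mice were delivered vaginally and drank normal water, and CON_CS mice were delivered by cesarean section and drank normal water. DSS_VD and DSS_CS mice had the same 2 kinds of birth and drank 3% dextran sulfate sodium (DSS), for 8 days; DSS damages the epithelium of the colon and is used to induce colitis. Each group had 4 libraries, 16 in all. Nothing in the labels ties a library to a mouse of its own, and the p-values therefore cover the spread among these libraries, which may be technical. Levels are in FPKM, a read level scaled by transcript length and library depth, and the depth itself is unknown.

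Complexes I and II pass electrons from NADH and succinate to ubiquinone, complex III passes them to cytochrome c, and complex IV to oxygen. Complexes I, III and IV pump protons across the inner mitochondrial membrane, and complex V, the ATP synthase, uses the gradient to make ATP. Complex II is wholly nuclear, whereas the other complexes combine nuclear subunits with subunits made inside the organelle, so their assembly draws on both genomes. Colonocytes are known for oxidising butyrate from the gut bacteria in their mitochondria.

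Promoter letters are shown for a gene that shared in the fall of the nuclear subunits under DSS (Cox6a1) and for 2 pairs in which a common subunit and its alternative isoform moved by different amounts or in opposite directions (Cox6b1 with Cox6b2, Cox7a2 with Cox7a1). Each window runs from 250 bases before to 50 bases after the RefSeq start site, on the gene's strand, from RefSeq on GRCm38.p6. Capitals mark exact matches, on either strand, to the palindrome of NRF1, a regulator of nuclear genes for mitochondrial proteins (the capitals nearest the left end of the Cox6a1 line), or to CCGGAAG, the core of ETS factors such as GABP, which reads CTTCCGG on the other strand. The Cox6a1 window is chr5:115348909-115349208 on the minus strand, and those of Cox6b1 and Cox6b2 are chr7:30626065-30626364 and chr7:4753045-4753344, both on the minus strand. Cox7a2 has chr9:79759804-79760103 on the minus strand and Cox7a1 chr7:30183921-30184220 on the plus strand.
Cox6a1: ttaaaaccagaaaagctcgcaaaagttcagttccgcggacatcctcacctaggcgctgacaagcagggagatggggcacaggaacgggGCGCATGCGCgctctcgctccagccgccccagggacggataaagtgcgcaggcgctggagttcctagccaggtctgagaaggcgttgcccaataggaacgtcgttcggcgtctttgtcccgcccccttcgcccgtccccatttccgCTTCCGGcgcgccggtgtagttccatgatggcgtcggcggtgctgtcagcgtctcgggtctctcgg
Cox6b1: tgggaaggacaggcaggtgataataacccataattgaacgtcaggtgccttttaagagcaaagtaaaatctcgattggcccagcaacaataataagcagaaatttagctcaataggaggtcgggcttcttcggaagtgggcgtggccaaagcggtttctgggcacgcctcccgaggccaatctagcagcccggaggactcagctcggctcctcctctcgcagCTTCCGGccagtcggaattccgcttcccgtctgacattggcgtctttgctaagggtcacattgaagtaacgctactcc
Cox6b2: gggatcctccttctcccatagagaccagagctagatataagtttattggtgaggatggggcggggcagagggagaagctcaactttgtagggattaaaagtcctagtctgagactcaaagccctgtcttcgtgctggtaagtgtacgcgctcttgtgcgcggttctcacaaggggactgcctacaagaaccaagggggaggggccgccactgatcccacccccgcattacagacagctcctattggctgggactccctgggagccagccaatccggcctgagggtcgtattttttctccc
Cox7a2: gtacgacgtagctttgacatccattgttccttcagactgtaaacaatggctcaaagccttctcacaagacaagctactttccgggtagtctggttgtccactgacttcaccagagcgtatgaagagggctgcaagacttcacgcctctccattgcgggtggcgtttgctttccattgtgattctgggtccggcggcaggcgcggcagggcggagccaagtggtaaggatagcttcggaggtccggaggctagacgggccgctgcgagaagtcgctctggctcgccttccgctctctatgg
Cox7a1: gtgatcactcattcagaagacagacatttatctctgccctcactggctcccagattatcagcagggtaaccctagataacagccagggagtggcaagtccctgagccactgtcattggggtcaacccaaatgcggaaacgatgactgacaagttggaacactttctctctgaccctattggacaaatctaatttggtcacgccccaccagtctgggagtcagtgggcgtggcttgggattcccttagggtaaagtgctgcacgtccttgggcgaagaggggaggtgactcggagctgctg

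Cox6a1 held an NRF1 match starting 162 bases before the start site and an ETS match 16 bases before it, and Cox6b1 an ETS match 28 bases before it. The windows of Cox6b2, Cox7a2 and Cox7a1 held no match to either motif or to AAGATGGC (YY1). RefSeq windows were found for 73 of the 95 nuclear genes. The NRF1 palindrome, which reads the same on both strands, was in 7 of the 73 (9.59%) against 1.07% of all 27025 genes with a window. CCGGAAG was in 18 (24.7%) against 9.93%, and AAGATGGC in 10 (13.7%) against 3.19%. A gene counted when at least 1 of its windows held the letters, and a match is a string of letters, not a measured binding site.

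The 13 mitochondrially encoded genes made up 5.65% to 13.3% of all FPKM in a library, and the 95 nuclear genes 1.17% to 2.61%. The summed FPKM of the nuclear genes was 8966, 7700, 8009 and 6965 in CON_VD and 6019, 6431, 6213 and 7432 in CON_CS. Under DSS it was 4115, 5334, 3958 and 4956 in DSS_VD and 4212, 3587, 3274 and 3689 in DSS_CS. Every DSS library lay below every water library, and the group means under DSS were 58.0% of those on water in VD mice and 56.6% in CS mice. The mitochondrially encoded sum was 30397, 38703, 36711 and 40472 in CON_VD and 34834, 32647, 40043 and 38619 in CON_CS. It was 22946, 28930, 20133 and 22635 in DSS_VD and 31658, 23487, 18623 and 17441 in DSS_CS. Within each kind of birth the DSS and water libraries did not overlap in this sum, with DSS means at 64.7% and 62.4% of those on water. DSS_CS replicate 1, the highest of its group, lay above CON_VD replicate 1, the lowest water library. As a percent of all FPKM, the 13 genes overlapped in VD mice (DSS_VD up to 8.98%, CON_VD from 8.85%). Their mean log2(FPKM + 1) overlapped between DSS and water in both kinds of mice. The nuclear genes stayed apart on these measures too, within each kind of birth. The ratio of the mitochondrially encoded to the nuclear sum averaged 4.70 ± 1.01 in CON_VD, 5.63 ± 0.63 in CON_CS, 5.16 ± 0.45 in DSS_VD and 6.12 ± 1.19 in DSS_CS (SD, n = 4 each). The ratio ranged from 3.39 to 7.52 and overlapped between all pairs of groups.

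**Figure D1:**
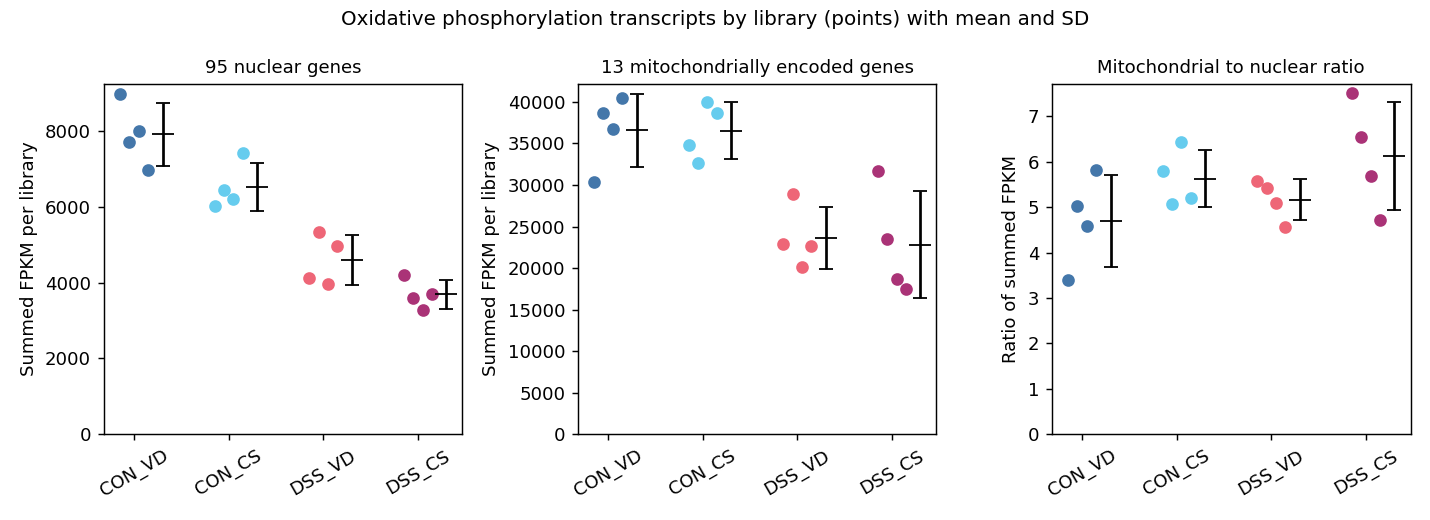
Summed FPKM of the 95 nuclear genes (left) and the 13 mitochondrially encoded genes (middle), and the ratio of the latter to the former (right), for the 4 groups; points are libraries and bars are mean and SD over 4 libraries. The nuclear sum runs from 6019 to 8966 on water and from 3274 to 5334 under DSS, while the ratio overlaps in all groups.

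In bulk tissue, fewer cells of a type and less RNA per cell cannot be told apart, so markers of the cell types in the colon were read beside these levels. The summed FPKM of 10 epithelial markers was 5672 to 6890 in CON_VD, 6340 to 6899 in CON_CS, 2861 to 6240 in DSS_VD and 942 to 2887 in DSS_CS. Of the 10, 3 fell in DSS_VD and 10 in DSS_CS against their water groups, with median log2 differences of -0.53 and -2.02. By the same test, described in the next paragraph, 17.0% of all tested genes fell and 24.0% rose in VD mice. In CS mice 25.9% fell and 34.4% rose. The 10 smooth muscle markers summed to 1916 to 3124, 2076 to 2753, 1257 to 1600 and 1383 to 3251 in the same order of groups. Of these 8 fell in VD and 2 in CS mice, where the share (20%) is below the 25.9% of all tested genes. All 10 leukocyte markers rose with DSS in both, and their sums were 32.9 to 104, 27.8 to 37.3, 259 to 525 and 447 to 648. Erythrocyte markers summed to 53.6 to 332, 28.4 to 47.7, 241 to 975 and 903 to 9731, and pericyte markers to 24.0 to 30.9, 27.6 to 32.6, 78.6 to 120 and 139 to 329. With DSS, 4 of 4 erythrocyte and 5 of 6 pericyte markers tested rose in VD mice, and 5 of 5 and 6 of 6 in CS mice. Adipocyte markers summed to 3.99 to 71.2, 2.67 to 6.08, 5.64 to 23.9 and 26.0 to 152, with Ucp1 listed at 0 in 15 libraries. Skeletal muscle markers summed to at most 12.6 in any library, and Myh4 was listed at 0 in all 16. DSS_CS replicates 3 and 4 and CON_CS replicate 1 also held the prostate transcript Pbsn, and the 6 prostate markers summed to 209 to 371, 208 to 389, 165 to 361 and 52.1 to 1493. Pbsn averaged 371 FPKM in DSS_CS (up to 1355) and 46.5 in CON_CS (up to 185), and at most 0.492 in any VD library. Spink1 made up most of the sum in the VD groups and averaged 115 FPKM in DSS_CS. Svs4 and Svs5, also on the prostate list, reached 1.05 and 2.10 FPKM in DSS_VD and 1.79 and 2.03 in DSS_CS. The part of any of these cell types in the results was not tested.

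Most nuclear genes were lower under DSS in both kinds of mice. In VD mice 78 of the 92 nuclear genes tested fell and 1 rose, and 40.9% of all tested genes passed in either direction (24.0% rose and 17.0% fell). In CS mice 77 fell and 3 rose, with 60.3% of all tested genes called (34.4% higher and 25.9% lower). A gene was tested when at least 4 libraries reached 1 FPKM, and called by limma on log2(FPKM + 1) at an adjusted p under 0.05. The median log2 difference of the nuclear genes was -0.71 in VD and -0.68 in CS mice, against 0.06 for all tested genes in each. Group ranges did not overlap for 75 nuclear genes in VD and 79 in CS mice, where all tested genes gave 38.6% and 57.0%. The 2 DSS comparisons share no library: 73 nuclear genes fell in both, which is 93.6% of those lower in VD and 94.8% of those lower in CS mice. Without DSS_CS replicates 3 and 4 together, which held prostate transcripts, 63 members were called in CS mice in place of 85, none of them mitochondrially encoded. CON_CS replicate 1 stayed in that fit, and the share of all tested genes called in it is not given here.

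**Figure D2:**
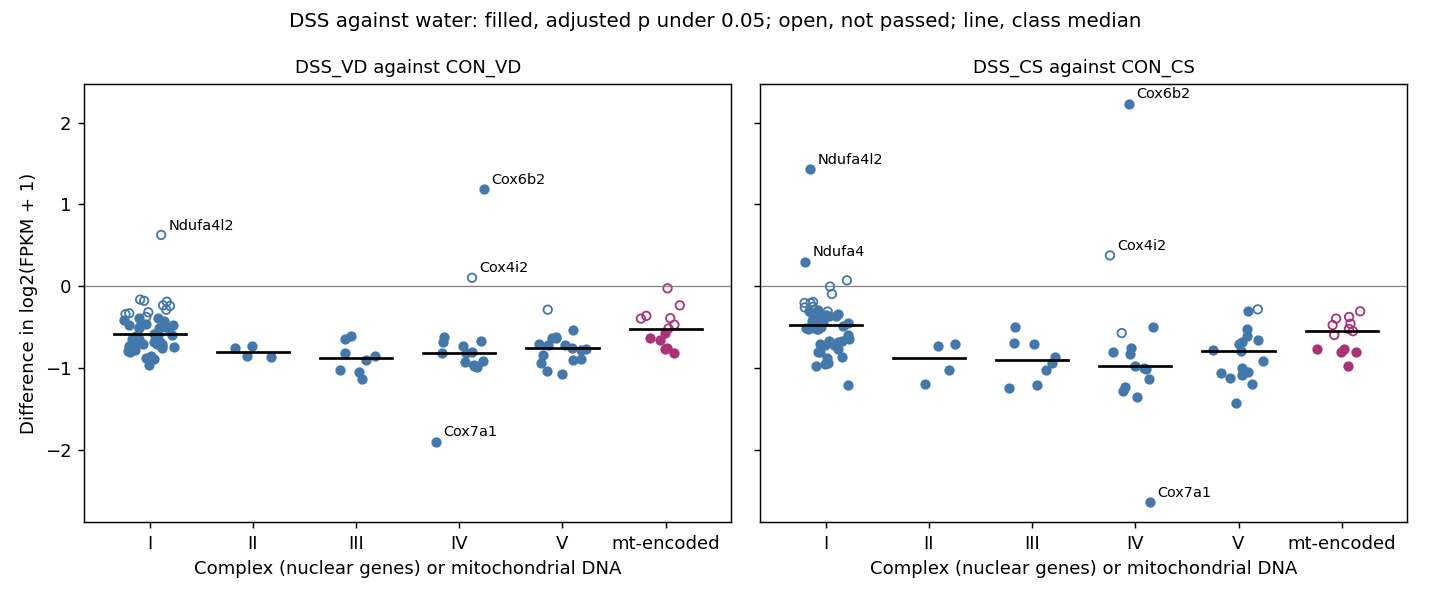
Difference in log2(FPKM + 1) between DSS and water libraries for each tested gene, in VD mice (left) and CS mice (right), by complex for nuclear genes and for mitochondrially encoded genes; filled points passed at an adjusted p under 0.05 and lines are class medians. Most points lie below 0 in each class, with Cox6b2 and Ndufa4l2 above it and Cox7a1 lowest.

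In complex I, 37 of 48 tested genes fell in VD mice (median -0.59), and in CS mice 37 fell and 2 rose (median -0.47). Ndufa1, a small membrane-arm subunit with the highest mean level of the class (chrX:37187588-37191163), was at 194, 159, 172 and 171 FPKM in CON_VD and 78.0, 110, 81.9 and 86.4 in DSS_VD. It was at 123, 138, 143 and 155 in CON_CS and 85.6, 77.7, 69.4 and 87.1 in DSS_CS. All DSS libraries lay below all water libraries, and Ndufa1 fell by 0.97 ± 0.14 (SE; adjusted p = 0.000584) in VD and by 0.80 ± 0.11 (adjusted p = 0.000253) in CS mice. Ndufs1, the largest iron-sulfur subunit, averaged 15.7 ± 0.551 FPKM in CON_CS and 8.21 ± 0.734 in DSS_CS and fell by 0.86 ± 0.08 (adjusted p = 2.31e-05). Ndufab1, the mitochondrial acyl carrier protein, fell by 0.71 in both kinds of mice, from 10.2 ± 0.676 to 5.87 ± 0.537 FPKM in VD and from 9.23 ± 0.452 to 5.27 ± 0.688 in CS mice (SD, n = 4).

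Some complex I genes did not follow the rest. Ndufs5, an accessory subunit, averaged 58.9, 43.4, 44.1 and 43.3 FPKM in CON_VD, CON_CS, DSS_VD and DSS_CS. It fell in VD mice (-0.42 ± 0.15, adjusted p = 0.0446), and its difference in CS mice was -0.00 ± 0.13. Of the 8 Ndufaf assembly factors, 2 fell in VD and 5 in CS mice, with medians of -0.27 and -0.34, while the other 84 tested nuclear genes had medians of -0.71 and -0.71 in turn. Reads of Ndufs6b, Ndufa11b, Ndufb4c and Cox6c2, which carry the names of gene copies, may be shared with their parent genes. Ndufa11b and Ndufb4c are annotated as processed pseudogenes. Ndufa11b stayed under the filter with Cox6a2 and Cox8b.

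All 4 genes of complex II, succinate dehydrogenase, fell in both kinds of mice (medians -0.80 and -0.88). Sdha, the flavoprotein that oxidises succinate (chr13:74322254-74350280), was at 71.4, 81.3, 74.3 and 77.5 FPKM in CON_VD and 43.0, 44.9, 42.1 and 51.7 in DSS_VD. In CS mice it was at 76.3, 80.2, 81.7 and 79.3 on water and 41.3, 36.7, 38.8 and 37.8 under DSS. Libraries of a group lay close together and DSS and water did not overlap. Sdha fell by 0.73 ± 0.11 (adjusted p = 0.000651) in VD and by 1.02 ± 0.08 (adjusted p = 5.91e-06) in CS mice. Sdhd, a membrane anchor and the most abundant of the 4, averaged 177 ± 15.8, 153 ± 12.6, 98.0 ± 19.9 and 66.7 ± 12.1 FPKM in CON_VD, CON_CS, DSS_VD and DSS_CS, and Sdhc, the other anchor, 46.1 ± 3.84, 37.1 ± 2.34, 26.9 ± 3.04 and 22.5 ± 2.91.

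All 8 nuclear genes of complex III also fell in both (medians -0.88 and -0.90). Uqcrfs1, the Rieske iron-sulfur protein (chr13:30540308-30545362), was at 131, 124, 125 and 115 FPKM in CON_VD and 52.6, 68.4, 49.3 and 69.1 in DSS_VD, and at 96.2, 100.4, 96.0 and 110 in CON_CS and 49.8, 42.8, 34.5 and 45.4 in DSS_CS. Water and DSS ranges were apart, and Uqcrfs1 fell by 1.05 ± 0.14 (adjusted p = 0.000405) and by 1.22 ± 0.12 (adjusted p = 3.37e-05). Uqcr10, a small subunit and the most abundant of the class, averaged 287 ± 68.3, 193 ± 35.3, 130 ± 29.2 and 94.3 ± 15.5 FPKM in CON_VD, CON_CS, DSS_VD and DSS_CS. It fell by 1.14 ± 0.22 in VD and by 1.02 ± 0.16 in CS mice. Uqcrc2, a core protein (chr7:120635176-120659524, a span it shares in part with Pdzd9), fell from 121 ± 12.1 to 68.7 ± 10.5 FPKM in VD and from 114 ± 12.9 to 47.5 ± 5.87 in CS mice.

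Of 15 tested nuclear genes of complex IV, cytochrome c oxidase, 13 fell and 1 rose in VD mice (median -0.81), and 12 fell and 1 rose in CS mice (median -0.98). Cox6a1, the most abundant nuclear subunit (chr5:115345642-115348981), was at 555, 454, 509 and 464 FPKM in CON_VD, 364, 381, 348 and 426 in CON_CS, 240, 367, 214 and 241 in DSS_VD, and 213, 150, 138 and 152 in DSS_CS. The 4 groups were ordered CON_VD, CON_CS, DSS_VD, DSS_CS by their means, and only CON_CS and DSS_VD had ranges that met among neighbours. Cox6a1 fell with DSS by 0.93 ± 0.19 (adjusted p = 0.00361) in VD and by 1.23 ± 0.15 (adjusted p = 0.000118) in CS mice. Cox4i1, which with mt-Co1 begins assembly of the enzyme, averaged 343 ± 53.1, 276 ± 49.7, 173 ± 34.8 and 138 ± 19.1 FPKM in the same order of groups, and fell by 0.993 ± 0.18 and by 0.996 ± 0.16. Cox5b, a zinc-binding subunit, fell by 0.96 ± 0.13 in VD mice, from 107 ± 5.18 to 54.8 ± 8.01 FPKM, and Cox8a, the smallest subunit, by 1.28 ± 0.14 in CS mice, from 343 ± 36.6 to 141 ± 22.5. Cox7b had a wider spread under DSS (81.5 to 174 FPKM in DSS_VD and 64.4 to 175 in DSS_CS). Its call in VD mice (-0.62 ± 0.21, adjusted p = 0.0408) was lost without any library but DSS_VD replicate 1, at adjusted p from 0.0616 to 0.0894.

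Complex V fell in 16 of its 17 genes in each kind of mice, with medians of -0.76 and -0.80. Atp5a1 and Atp5b encode the alpha and beta subunits of the catalytic head. Atp5b (chr10:128083273-128090391) was at 334, 328, 328 and 297 FPKM in CON_VD, 284, 307, 295 and 338 in CON_CS, 152, 175, 158 and 210 in DSS_VD, and 140, 118, 129 and 144 in DSS_CS. Water libraries of the 2 births overlapped and DSS libraries lay below them. Atp5b fell by 0.90 ± 0.14 (adjusted p = 0.000848) in VD and by 1.20 ± 0.11 (adjusted p = 1.87e-05) in CS mice. Atp5a1 followed it, with means of 325, 315, 192 and 152 FPKM in CON_VD, CON_CS, DSS_VD and DSS_CS. Atp5g1, 1 of 3 genes for subunit c of the rotating ring, fell by 1.03 ± 0.10 in VD mice (31.3 ± 2.76 to 14.8 ± 0.990 FPKM) and by 1.43 ± 0.22 in CS mice (28.9 ± 5.75 to 10.3 ± 3.26). Atp5o, a subunit of the stalk, had the largest fall of the class in VD mice, 1.07 ± 0.18, from 127 ± 20.0 to 60.1 ± 12.3 FPKM.

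The largest fall and the largest rise under DSS among the members were both in genes for alternative isoforms. Cox7a1, the form of subunit VIIa typical of heart and skeletal muscle (chr7:30184144-30186078), was at 39.7, 30.6, 41.7 and 37.8 FPKM in CON_VD, 19.9, 26.9, 29.3 and 31.6 in CON_CS, 10.9, 16.4, 4.45 and 8.65 in DSS_VD, and 6.08, 2.73, 1.60 and 4.49 in DSS_CS. All DSS libraries lay below all water libraries. It had the largest fall of all members, 1.90 ± 0.31 (adjusted p = 0.00108) in VD and 2.64 ± 0.29 (adjusted p = 6.71e-05) in CS mice. Its common counterpart Cox7a2 fell by 0.81 ± 0.19 and by 0.83 ± 0.15, with means of 148, 112, 84.9 and 63.0 FPKM in CON_VD, CON_CS, DSS_VD and DSS_CS. Smooth muscle markers moved with Cox7a1 in VD mice, where their median difference was -0.74, and less in CS mice (-0.19). The epithelial markers had medians of -0.53 in VD and -2.02 in CS mice. Of the 10 skeletal muscle markers 2 were tested, and 1, the muscle creatine kinase Ckm, fell with Cox7a1 in both kinds of mice (-1.48 and -1.36). Ckm averaged 4.99, 5.02, 1.07 and 1.35 FPKM in CON_VD, CON_CS, DSS_VD and DSS_CS, while the actin gene Acta1 averaged 1.97, 2.58, 5.02 and 4.20, and the myosin gene Myh4 was listed at 0 throughout. The part of any of these cell types in the difference of Cox7a1 was not tested.

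Cox6b2, known as the testis form of subunit VIb (chr7:4751792-4753094), moved the other way. It was at 3.44, 3.24, 3.57 and 5.04 FPKM in CON_VD, 2.46, 3.31, 2.48 and 3.16 in CON_CS, 9.90, 6.01, 14.5 and 10.9 in DSS_VD, and 13.1, 19.7, 19.7 and 16.5 in DSS_CS. Each DSS library was above every water library. Cox6b2 rose by 1.19 ± 0.23 (adjusted p = 0.00285) in VD and by 2.23 ± 0.14 (adjusted p = 2.96e-06) in CS mice. Cox6b1, the common form, fell by 0.82 ± 0.16 and by 1.01 ± 0.13, and stayed the more abundant, at 152 ± 31.2 and 108 ± 17.8 FPKM in DSS_VD and DSS_CS. The same scale put the mean of Cox6b2 at 10.3 and 17.3 FPKM in those groups.

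Ndufa4l2, a paralogue of Ndufa4 known as a target of hypoxia-inducible factor, was at 1.12, 0.857, 1.03 and 1.13 FPKM in CON_VD and 0.774, 0.994, 0.623 and 1.004 in CON_CS. It was at 2.86, 0.998, 1.54 and 3.97 in DSS_VD and 3.20, 5.94, 2.98 and 4.24 in DSS_CS. DSS_VD replicate 2 was within the water range and all DSS_CS libraries were above it. The rise was called in CS mice (1.43 ± 0.18, adjusted p = 0.000127), and the difference in VD mice was 0.63 ± 0.26 (adjusted p = 0.0811, and called without DSS_VD replicate 2). The gene overlaps Shmt2 on the other strand (chr10:127514967-127517154), and without knowledge of strand the reads of the 2 genes cannot be told apart. Of the 95 nuclear genes, 42 overlap another annotated gene on either strand, among them Ndufs1, Atp5a1 and Cox4i1. Ndufa4 was at 82.0, 57.4, 65.7 and 54.4 FPKM in CON_VD, 50.4, 47.0, 45.6 and 56.1 in CON_CS, 48.9, 46.9, 49.6 and 56.3 in DSS_VD, and 58.0, 68.5, 57.3 and 61.6 in DSS_CS. The DSS_CS libraries lay above those of CON_CS, where Ndufa4 rose by 0.30 ± 0.10 (adjusted p = 0.0271), and the difference in VD mice was -0.34 ± 0.14 (adjusted p = 0.0877). The rise was lost without CON_CS replicate 2 or 3, or DSS_CS replicate 2 or 4, at adjusted p from 0.0597 to 0.0791, and under median-of-ratios scaling it was 0.17 (adjusted p = 0.188).

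The remaining alternative forms were low. Cox4i2, an alternative to Cox4i1 known from lung and low oxygen, averaged 1.23, 1.01, 1.45 and 1.69 FPKM in CON_VD, CON_CS, DSS_VD and DSS_CS and passed in no comparison. Cox6a2 and Cox8b, the heart and skeletal muscle forms, were at most 0.570 and 1.27 FPKM in any library and were not tested.

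**Figure D3:**
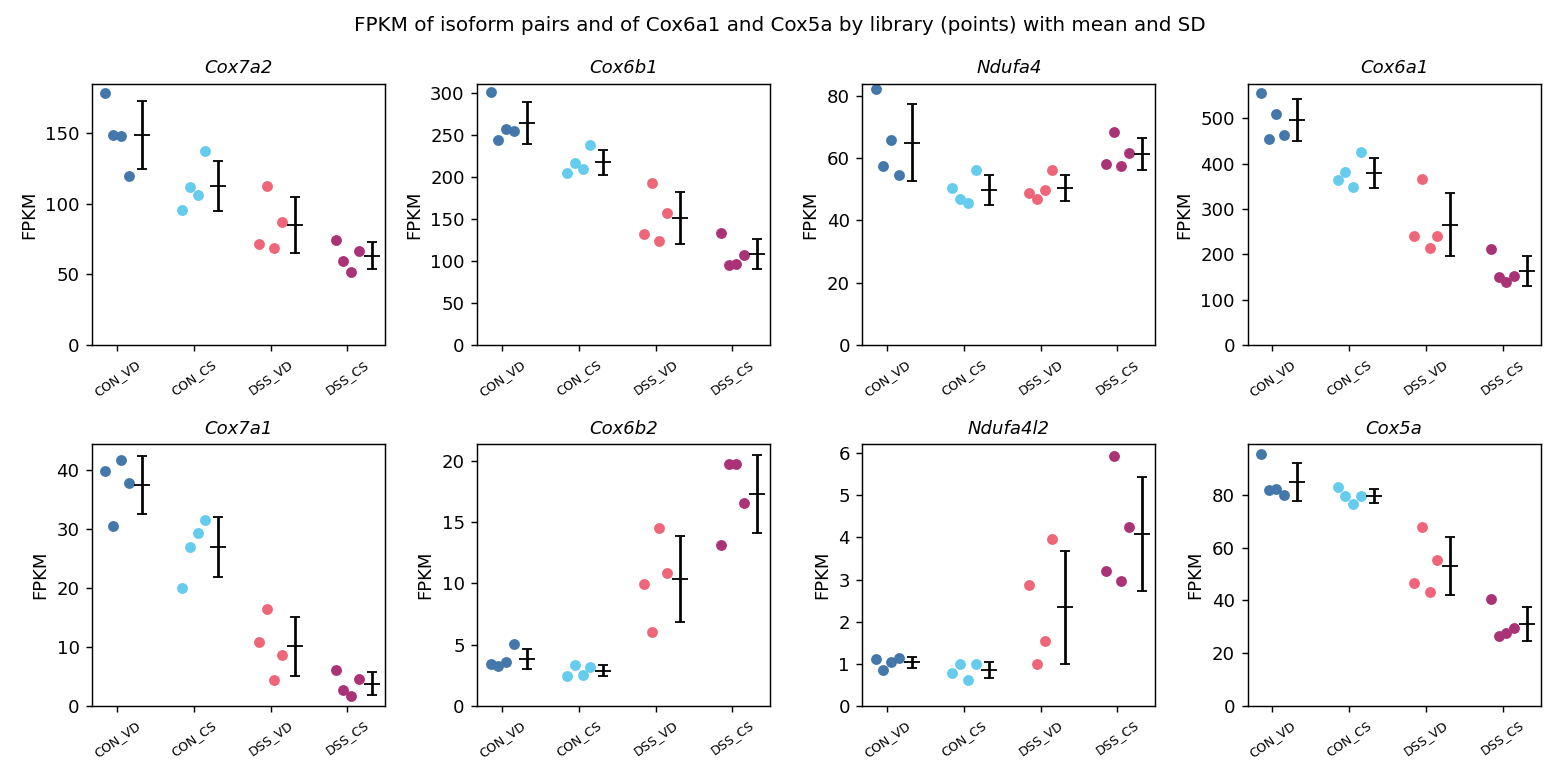
FPKM per library (points) with mean and SD over 4 libraries for 3 isoform pairs (Cox7a2 over Cox7a1, Cox6b1 over Cox6b2, Ndufa4 over Ndufa4l2) and for Cox6a1 and Cox5a, in the 4 groups; each panel has its own linear axis from 0. Cox7a1 ends at 3.73 FPKM in DSS_CS and Cox6b2 at 17.3, while their counterparts Cox7a2 and Cox6b1 both decline.

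Among the 13 mitochondrially encoded genes, all of them subunits of complexes I, III, IV and V, 6 fell in VD and 5 in CS mice and none rose. These are 46.2% and 38.5% of the 13, against 40.9% and 60.3% of all tested genes called in either direction and 17.0% and 25.9% called lower. Their medians were -0.52 and -0.55, smaller than those of the nuclear genes in each kind of mice. mt-Co1, the catalytic core of complex IV and the most abundant member, was at 7505, 10069, 8912 and 10431 FPKM in CON_VD and 5142, 7013, 4216 and 4738 in DSS_VD. In CS mice it was at 8504, 7900, 9643 and 8765 on water and 6607, 4301, 3663 and 3628 under DSS. Ranges did not meet, and mt-Co1 fell by 0.82 ± 0.25 (adjusted p = 0.0269) and by 0.98 ± 0.26 (adjusted p = 0.00954). mt-Co2 and mt-Co3, the other core subunits of complex IV, and mt-Atp6, the proton channel subunit of complex V, were also lower in both, so that 4 genes were called in each. This is 66.7% of those called in VD and 80% of those in CS mice. The further calls were mt-Nd4 (-0.58 ± 0.18) and mt-Cytb (-0.66 ± 0.20) in VD, and mt-Atp8 (-0.80 ± 0.20) in CS mice.

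The 7 mitochondrially encoded subunits of complex I had smaller differences than those of complex IV in both kinds of mice. They ranged from -0.58 to -0.03 in VD and from -0.55 to -0.31 in CS mice, against -0.82 to -0.76 and -0.98 to -0.77 for the 3 mt-Co genes. mt-Nd5, a proton-pumping subunit, was at 540, 837, 835 and 916 FPKM in CON_VD and 719, 864, 674 and 770 in DSS_VD, which overlapped (-0.03 ± 0.20). It was at 965, 903, 1321 and 998 in CON_CS and 1187, 836, 707 and 576 in DSS_CS (-0.38 ± 0.24, adjusted p = 0.203), where the ranges also overlapped. mt-Nd6, the 1 member on the minus strand of mitochondrial DNA, overlaps mt-Nd5 at its end and had differences of -0.23 ± 0.14 and -0.40 ± 0.24. The remaining overlaps on this compact genome were on the same strand between mt-Atp8, mt-Atp6 and mt-Co3, and between mt-Nd4l and mt-Nd4, or with transfer RNA genes. The sources used here do not say how ribosomal RNA was kept out of the libraries.

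Single libraries changed how many mitochondrially encoded genes were called. In VD mice the count was 9 without CON_VD replicate 1 or without DSS_VD replicate 2, 1 without CON_VD replicate 3, and 2 without any of CON_VD replicates 2 and 4 or DSS_VD replicates 1, 3 and 4. In CS mice it was 12 without DSS_CS replicate 1, whose mitochondrially encoded sum was highest in its group, and 0 without DSS_CS replicates 3 and 4 together. There mt-Co1 differed by -0.70 (adjusted p = 0.0897).

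**Figure D4:**
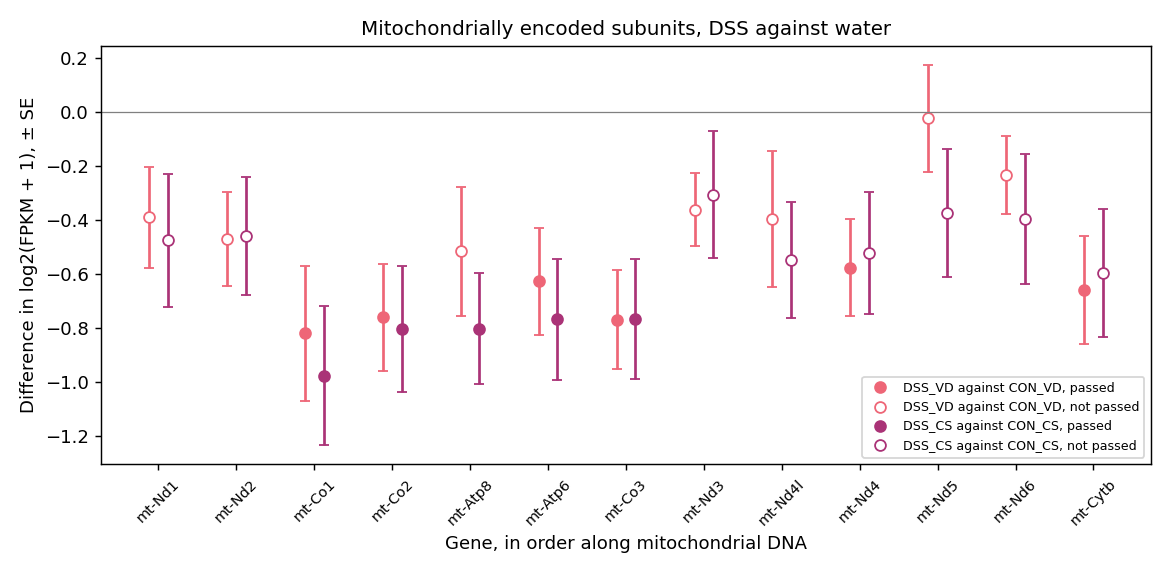
Difference in log2(FPKM + 1) ± SE between DSS and water for the 13 mitochondrially encoded genes, in their order along mitochondrial DNA, in VD and CS mice; filled points passed at an adjusted p under 0.05. The genes from mt-Co1 to mt-Co3, and mt-Cytb, lie lower than mt-Nd3, mt-Nd5 and mt-Nd6.

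Under DSS, the comparison of CS with VD mice asked whether birth changed the genes in the injured colon. Of 92 nuclear genes 2 fell, Cox5a and Uqcrc2, and none rose, where 13.4% of all tested genes passed (7.89% higher and 5.54% lower). No mitochondrially encoded gene passed in limma, and none had an unadjusted p under 0.05. Of the 92 nuclear differences, 81 were below 0, with a median of -0.24, against 0.06 for all tested genes, and ranges were apart for 11 (22.5% of all tested genes). The median of the mitochondrially encoded genes was 0.07, or -0.01 under median-of-ratios scaling.

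Cox5a, a subunit facing the matrix that partners Cox4i1 (chr9:57521274-57532426, overlapping the predicted gene Gm26631), was at 46.5, 67.8, 43.3 and 55.1 FPKM in DSS_VD and 40.4, 26.6, 27.5 and 29.4 in DSS_CS. All DSS_CS libraries lay below DSS_VD, and the difference was -0.76 ± 0.18 (adjusted p = 0.0366). Uqcrc2 was at 59.7, 70.3, 62.0 and 82.9 in DSS_VD and 50.5, 41.5, 43.6 and 54.1 in DSS_CS (-0.52 ± 0.14, adjusted p = 0.0455), again without overlap. Neither call held without every library: Cox5a was lost without DSS_VD replicate 1, 2 or 4 or DSS_CS replicate 2, 3 or 4, at adjusted p from 0.0668 to 0.0986, and Uqcrc2 without any of the 8 libraries, at 0.0551 to 0.121. With 1 error estimate from all 4 groups, 21 members were called. The share of all tested genes called in that fit is not given here. Cox7a1 had the largest negative difference (-1.21 ± 0.40, adjusted p = 0.0757) and Cox6a1 one of -0.69 ± 0.21 (adjusted p = 0.0587). The largest positive differences were Cox6b2 (0.73 ± 0.24, adjusted p = 0.0735), Ndufa4l2 (0.66 ± 0.30) and Ndufa4 (0.28 ± 0.11). Of the 10 epithelial markers, 7 fell in the same comparison with a median of -1.43, and 3 of 5 erythrocyte and 3 of 6 pericyte markers rose. Their part in the difference was not tested.

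On water, no member passed limma's adjusted p between CS and VD mice, and 0.407% of all tested genes did. At an unadjusted p under 0.05 there were 50 of the 105 members tested, all nuclear, and 2598 of all 13275 genes tested. Of 92 nuclear genes 86 had differences below 0, with a median of -0.27 against 0.03 for all tested genes, and 21 had ranges apart (10.7% of all tested genes). Of the 13 mitochondrially encoded genes, 9 were above 0, with a median of 0.06 (-0.01 under median-of-ratios scaling) and no ranges apart. Cox5b had the smallest p of complex IV. It was at 110, 105, 112 and 101 FPKM in CON_VD and 84.5, 87.8, 77.3 and 89.2 in CON_CS, which did not overlap (-0.33 ± 0.08, adjusted p = 0.107). Uqcr10 had the largest negative difference (-0.56 ± 0.19, adjusted p = 0.179) with ranges of 210 to 373 and 167 to 244 FPKM. Ndufs5 differed by -0.43 ± 0.11 (adjusted p = 0.115), Sdhc by -0.30 ± 0.09 (adjusted p = 0.138) and Atp5j2, an ATP synthase membrane subunit, by -0.42 ± 0.13 (adjusted p = 0.153). The largest positive difference was mt-Nd5 at 0.43 ± 0.19 (adjusted p = 0.26), with CON_VD replicate 1 lowest at 540 FPKM. Without CON_VD replicate 4, 1 gene, Sdhb, the iron-sulfur subunit of complex II, was called. Epithelial markers had a median of 0.05 with none called, and the 4 erythrocyte markers tested had a median of -1.59, also with none called.

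**Figure D5:**
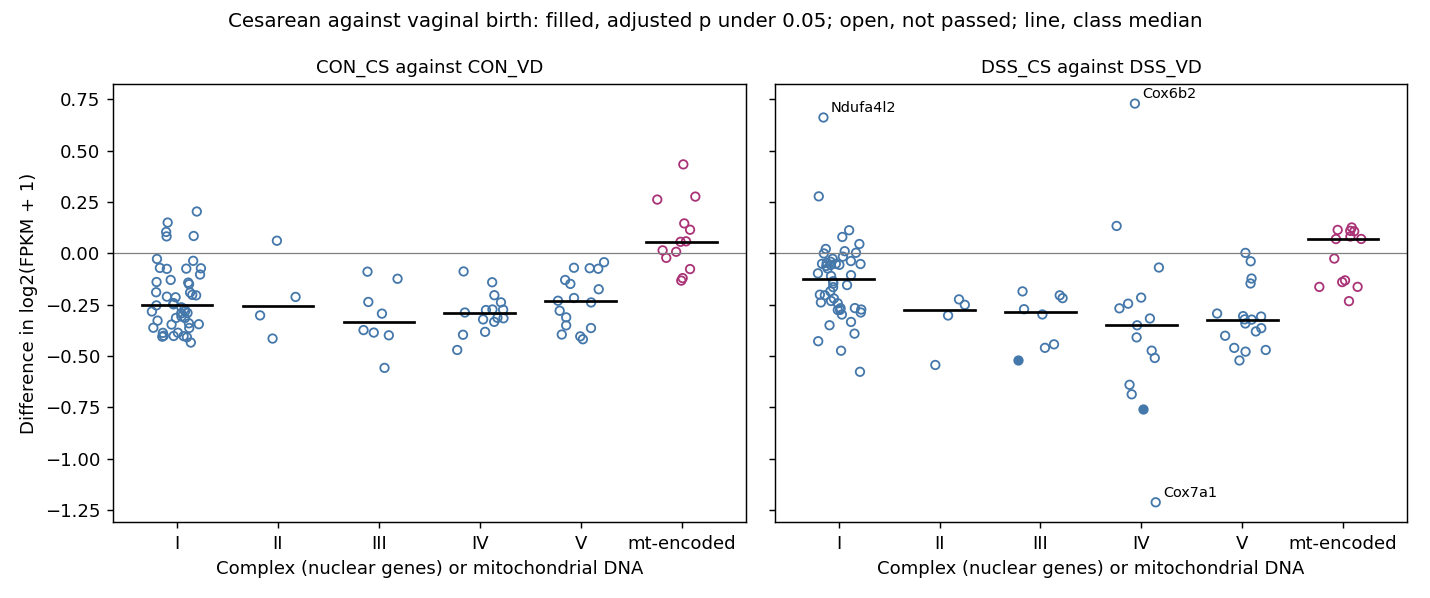
Difference in log2(FPKM + 1) between CS and VD mice for each tested gene on water (left) and under DSS (right), by complex and for mitochondrially encoded genes; filled points passed at an adjusted p under 0.05 and lines are class medians. Medians of the nuclear classes are below 0 and those of the mitochondrially encoded genes are 0.06 and 0.07, and the 2 filled points are Cox5a and Uqcrc2.

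The interaction of birth and DSS tested whether the response to DSS differed between CS and VD mice. It was called for 3 nuclear genes, where 13.2% of all tested genes passed (6.68% higher and 6.55% lower), and for no mitochondrially encoded gene (limma; none at an unadjusted p under 0.05). Median interactions were -0.00 for nuclear and -0.08 for mitochondrially encoded genes, against 0.04 for all tested genes. The epithelial markers had a median of -1.36, with 6 of 10 called lower. Erythrocyte markers were called higher in 5 of 5 (median 4.28), adipocyte markers in 1 of 2 and pericyte markers in 1 of 6. The part of these cell types in the interactions was not tested. Cox6b2 (1.04 ± 0.29, adjusted p = 0.0296) and Ndufa4 (0.64 ± 0.17, adjusted p = 0.0274) had a more positive response to DSS in CS than in VD mice, and Cox5a a more negative one (-0.67 ± 0.20, adjusted p = 0.0426). Cox6b2 was lost without CON_VD replicate 3, CON_CS replicate 1 or 3, or DSS_CS replicate 2 or 3, at adjusted p from 0.0518 to 0.0634. Ndufa4 was lost without CON_VD replicate 3, CON_CS replicate 2 or 3, DSS_VD replicate 2 or DSS_CS replicate 2, at 0.0521 to 0.0588. Cox5a held without CON_VD replicate 1, DSS_VD replicate 1 or 3, or DSS_CS replicate 1, and was lost without any other library, at 0.0634 to 0.0893.

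Other genes of mitochondrial energy metabolism were read from fixed lists. All 17 genes of the tricarboxylic acid cycle, which feeds electrons to the chain, fell with DSS in both kinds of mice (medians -0.74 and -0.69). Of all tested genes, 17.0% fell in VD and 25.9% in CS mice. Suclg1, of succinyl-CoA ligase, averaged 36.9, 33.8, 15.1 and 11.2 FPKM in CON_VD, CON_CS, DSS_VD and DSS_CS, and Idh3a, of isocitrate dehydrogenase, 35.7, 31.98, 14.5 and 13.02. Between CS and VD mice under DSS, 3 of the 17 (17.6%) were called, all lower. Of all tested genes 13.4% were called there, and 5.54% were lower. Cs (citrate synthase, -0.65 ± 0.16) and Suclg2, of succinyl-CoA ligase (-0.66 ± 0.18), were lower in that comparison. Of 23 electron and ATP carriers, 13 fell and 1 rose in VD, and 17 fell and 1 rose in CS mice (medians -0.42 and -0.56). In DSS_CS against DSS_VD, 3 carriers were lower and 1 was higher, a share of 17.4% against the same 13.4%. The ADP/ATP carrier Slc25a5 averaged 603, 544, 321 and 177 FPKM, whereas its paralogue Slc25a4, the heart and muscle form, averaged 28.4, 26.7, 44.8 and 72.4 and was higher in DSS_CS than in DSS_VD (0.67 ± 0.16, adjusted p = 0.037). Cycs, cytochrome c, was lower in that comparison (-0.97 ± 0.18, adjusted p = 0.031), at 48.9 against 24.5 FPKM.

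Lists of genes that assemble the complexes or maintain and read the mitochondrial genome were also counted. Of all tested genes, 40.9% were called in either direction in VD and 60.3% in CS mice. The shares called were 37.8% and 53.8% for assembly factors and 28.6% and 50% for upkeep of mitochondrial DNA. They were 29.5% and 52.6% for ribosome proteins and 40% and 60% for biogenesis regulators. These shares are below or near those of all genes called in either direction. In VD mice every call in these lists was lower, and their shares are above the 17.0% of all tested genes called lower. In CS mice most calls in each list were lower, where 25.9% of all tested genes were called lower. Of complex assembly factors outside the Ndufaf names, 14 of 37 fell in VD mice, and 19 of 39 fell and 2 rose in CS mice (medians -0.29 and -0.26), among them Cox10, which makes heme A (-0.77 ± 0.10 and -1.02 ± 0.12). Of 28 genes for upkeep and expression of mitochondrial DNA, 8 fell in VD and 14 in CS mice (medians -0.18 and -0.23), with Twnk, the DNA helicase, at -0.80 ± 0.15 and -0.68 ± 0.08. Of 78 mitochondrial ribosome proteins, 23 fell in VD mice, and 36 fell and 5 rose in CS mice (medians -0.19 and -0.22). Of 10 regulators of mitochondrial biogenesis tested, 4 fell in VD, and 5 fell and 1 rose in CS mice (medians -0.02 and -0.27). Differences above 0 were found for 5 of the 10 in VD and 3 of the 10 in CS mice. Ppargc1a, a coactivator of mitochondrial gene programmes, averaged 4.90, 5.29, 0.621 and 0.276 FPKM in CON_VD, CON_CS, DSS_VD and DSS_CS (-1.82 ± 0.24 and -2.29 ± 0.13). Ppard, a nuclear receptor of fatty acid oxidation, averaged 21.1, 20.2, 12.7 and 7.14, and Esrra, an orphan receptor that works with Ppargc1a, 36.8, 27.9, 25.2 and 13.8; both were also lower in DSS_CS than in DSS_VD (-0.76 ± 0.14 and -0.84 ± 0.18).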

How the data were processed

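Colon RNA of 16 mouse libraries was analysed, 4 in each of 4 groups set by the labels. The authors deposited gene FPKM values. Per the labels' protocols, RNA was total RNA from Trizol, and the submitters' processing notes name cutadapt, FastQC and GRCm38, without versions; no source used here gives the aligner, the quantifier, the annotation or the handling of strand. Symbols were found for 39181 of 39328 gene identifiers, and positions come from GENCODE M21. Differences were tested with limma 3.58.1 (R 4.3.3) on log2(FPKM + 1), with a mean-variance trend, on genes with at least 1 FPKM in at least 4 fitted libraries. Each comparison of 2 groups used its own 8 libraries and the interaction all 16. Tests were two-sided, with Benjamini-Hochberg adjustment over all tested genes and a threshold of 0.05, and fold changes understate low genes. Tables and plots used Python 3.11.15, pandas 2.3.3 and matplotlib 3.10.9. The script was tested on simulated data. Of simulated log2 changes of 0.5, it recovered 38% for CON_CS against CON_VD, 12% for DSS_CS against DSS_VD and 15% for the interaction. Differences of that size can therefore go uncalled. Members, gene lists and marker lists were chosen with earlier results of these data known. Named genes were the member of smallest p in each class and comparison, the 3 largest rises and falls per comparison, the most abundant of each class, the isoform pairs and all mitochondrially encoded genes, with up to 3 genes of smallest p per list. Alternatives changed the pseudocount, filter, scaling, trend, error estimate, replicate block and libraries. Genes named outside that rule were chosen after their values were seen.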

Additional observations from a re-analysis of the deposited data

Results flagged for a closer look

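Over the 45 named members and 7 quantities per library (such as the summed levels), each in 4 groups, 208 sets of 4 libraries were checked. In 6 of them, all of named members, 1 library stood far from the other 3, where chance gives about 1 in 20. Cox5a was highest in CON_VD replicate 1 at 95.6 FPKM, with the others at 80.1 to 82.2. CON_CS replicate 4 was highest for Atp5j2 (50.1 FPKM, others 39.2 to 40.8), Cox7b (166 FPKM, others 142 to 146) and Ndufa6 (62.0 FPKM, others 52.2 to 53.8). Atp5b was lowest in CON_VD replicate 4 at 297 FPKM, with the others at 328 to 334. Ndufs1 was highest in DSS_VD replicate 4 at 12.5 FPKM, with the others at 9.09 to 9.61.

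The response to DSS differed between CS and VD mice by the interaction test for Cox5a (-0.67), Ndufa4 (0.64) and Cox6b2 (1.04), in log2(FPKM + 1).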

How the results depend on the processing

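No value of a named member changed direction while called. The counts of members called below are given without the share of all tested genes called under the same alternative. The number of members called with DSS ranged from 71 to 90 in VD mice and from 63 to 94 in CS mice over all alternatives, against 85 in each; leaving out 1 library gave 71 to 87 and 79 to 94. Mitochondrially encoded calls went from 6 and 5 to 0 and 0 with no filter on low values, and to 0 and 5 with the replicate block. For DSS_CS against DSS_VD, the 2 calls became 0 with no filter, 4 with a filter at 5 FPKM, 1 with TPM scaling, 1 with scaling without mitochondrial genes, and 21 when all 4 groups were fitted together. It became 0 when the pair of DSS_CS libraries holding prostate genes was left out, an alternative chosen after seeing the data. Leaving out 1 library gave 0 to 6 there, with 6 without DSS_VD replicate 3, 0 to 1 for CON_CS against CON_VD, and 0 to 3 for the interaction. The 3 interaction calls became 0 with no filter and 0 without those 2 libraries. The causes of these changes in the counts were not tested.

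With the replicate block, members called were 0 for DSS_CS against DSS_VD, 72 and 81 for DSS in VD and CS mice, 0 for CON_CS against CON_VD and 2 for the interaction. Same-numbered libraries did not deviate together: correlations ran from -0.28 to 0.13, 2 of 24 pairs exceeded 0.1, and a library correlated best with its own number in 5 of 24.

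TPM scaling moved the median of all genes from 0.03 to 0.13 (CON_CS against CON_VD) and scaling without mitochondrial genes to 0.14. Nuclear medians stayed below 0 in all alternatives, at -0.34 to -0.16 on water and -0.32 to -0.16 under DSS for CS against VD mice. Without known depth, no interval from counting error can be given for low members such as Ndufa4l2.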

Other observations

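By complex, the summed FPKM of nuclear genes differed between the groups. Complex I averaged 2162 ± 257 in CON_VD, 1765 ± 179 in CON_CS, 1381 ± 160 in DSS_VD and 1256 ± 105 in DSS_CS (SD, n = 4), and complex IV 2403 ± 222, 1935 ± 189, 1345 ± 269 and 975 ± 167. The mitochondrially encoded subunits of complex I summed to 8986 ± 1292, 9894 ± 1175, 6850 ± 785 and 7367 ± 2206, and those of complex IV to 17499 ± 1626, 16314 ± 1421, 10179 ± 1988 and 9041 ± 2575. These sums were not tested.

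A few nuclear subunits, chosen here after their values were seen, passed in neither DSS comparison. Ndufa2, an accessory subunit of complex I, averaged 124 FPKM in CON_VD and 93.2, 94.9 and 97.5 in CON_CS, DSS_VD and DSS_CS. Atp5e, the epsilon subunit of complex V and the 1 gene of that complex not called, averaged 65.4, 51.5, 52.1 and 41.9. Ndufs4, an accessory subunit of complex I, averaged 17.9, 13.6, 15.6 and 11.4.

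CON_VD replicate 1 had the highest nuclear sum (8966), the lowest mitochondrially encoded sum (30397) and the highest leukocyte marker sum (104 FPKM) of its group. Its sums of epithelial (6890), smooth muscle (3124), skeletal muscle (12.6), erythrocyte (332) and prostate markers (371) were also the highest of CON_VD. Its adipocyte (15.7) and pericyte (27.1) marker sums were not.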
